A study of Mus musculus with 9 samples.

Results

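Stem-like CD8+ T cells, the killer lymphocytes that keep the ability to renew themselves and to give rise to effector cells, are held in that state by a small circuit of transcription factors built around TCF-1, the product of Tcf7. The genes described here are 10 members of that circuit: Tcf7, Lef1, Satb1, Bcl11b, Foxo1, Foxo3, Foxp1, Ets1, Myb and Bcl6. They were chosen by name from what is known of the circuit, with earlier results of these data known. All 10 are in the deposited table of 48709 gene symbols, and all 10 were among the 11971 genes tested. The study sequenced RNA of mouse CD8+ T cells in 9 libraries, which fall into 3 groups of 3: OVA/Citra, cells given OVA peptide together with citraconate; OVA, cells given the peptide alone; and CTRL, cells without peptide. OVA peptide is a piece of chicken ovalbumin and a common test antigen. Citraconate is a dicarboxylate and a relative of itaconate, a metabolite of activated macrophages. The sources used here give no mouse strain, age, T cell receptor, dose or time, and no group received citraconate without peptide. The labels name the cells of 8 libraries PAS-T, a term they do not define, and those of OVA/Citra replicate 1 as OVA-stimulated T cells. They do not say whether replicates came from separate cultures or animals, so every p-value measures the spread between these libraries, which may be technical.

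TCF-1 and its relative LEF-1 bind DNA through an HMG box and either repress, with Groucho (TLE) proteins, or activate, with beta-catenin. When a naive CD8+ T cell meets antigen, signals through the T cell receptor and AKT drive FOXO1 out of the nucleus, Tcf7 is turned down in most daughters, and the cells that keep it form the stem-like and memory pool. SATB1, BCL11B and ETS1 belong to the program of T cell identity, and MYB, BCL6 and the FOX proteins are known to guard quiescence, self-renewal or memory in CD8+ T cells.

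Recognition motifs of 3 of these families can be looked for in the promoters of the genes themselves. RefSeq windows on the GRCm38.p6 build, from 250 bases before a start of transcription, matched 9 of the 10 genes in 20 windows; Ets1 had no entry. Each window was searched on both strands for CTTTGA (or TCAAAG), the core bound by TCF-1 and LEF-1, for GTAAACA (or TGTTTAC), bound by forkhead proteins, and for CCGGAA (or TTCCGG), bound by ETS proteins. The TCF/LEF core lay in 4 of the 20 windows, those of Bcl11b, Bcl6, Foxp1 and Lef1, and in 16% of all 32851 windows. The forkhead motif lay in 2 of the 20 windows (Myb and Tcf7), against 3.65% of all windows, and the ETS motif in 3 of the 20 (Bcl6 and Tcf7), against 14.9%. Of these, 1 window each of Tcf7 and Lef1 is printed because these genes are the HMG-box pair, and 1 each of Bcl11b and Bcl6 because they hold the TCF/LEF core close to the start. They run 5′ to 3′ along the gene, from 250 bases before the start to 30 bases into the transcript, with every motif match in capitals. They lie at chr11:52282566-52282845 on the minus strand (Tcf7), chr3:131156044-131156323 on the plus strand (Lef1), chr12:108003385-108003664 on the minus strand (Bcl11b) and chr16:23981254-23981533 on the minus strand (Bcl6).
Tcf7: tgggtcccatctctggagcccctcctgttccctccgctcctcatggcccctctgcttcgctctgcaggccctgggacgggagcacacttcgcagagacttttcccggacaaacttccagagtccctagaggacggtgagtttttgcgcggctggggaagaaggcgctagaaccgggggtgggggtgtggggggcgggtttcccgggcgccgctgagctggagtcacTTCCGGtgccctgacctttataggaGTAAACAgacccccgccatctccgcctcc
Lef1: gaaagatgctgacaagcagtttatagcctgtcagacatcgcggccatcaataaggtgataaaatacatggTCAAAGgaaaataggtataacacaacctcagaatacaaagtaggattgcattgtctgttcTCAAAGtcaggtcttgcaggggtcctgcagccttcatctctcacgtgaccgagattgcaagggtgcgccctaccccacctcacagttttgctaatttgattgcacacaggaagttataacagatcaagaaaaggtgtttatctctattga
Bcl11b: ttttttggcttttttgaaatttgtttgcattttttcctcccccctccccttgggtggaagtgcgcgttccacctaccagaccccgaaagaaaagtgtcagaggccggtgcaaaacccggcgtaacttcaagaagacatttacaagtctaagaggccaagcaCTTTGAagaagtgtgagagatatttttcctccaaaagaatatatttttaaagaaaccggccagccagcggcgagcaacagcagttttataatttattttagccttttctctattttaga
Bcl6: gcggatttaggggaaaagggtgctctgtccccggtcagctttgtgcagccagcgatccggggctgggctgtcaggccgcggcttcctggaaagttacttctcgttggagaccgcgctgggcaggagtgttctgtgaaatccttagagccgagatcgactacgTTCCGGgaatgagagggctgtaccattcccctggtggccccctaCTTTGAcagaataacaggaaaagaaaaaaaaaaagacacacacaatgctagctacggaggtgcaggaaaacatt
In the Tcf7 window the ETS motif began 24 bases before the start and the forkhead motif at base 2 of the transcript. The Lef1 window, that of an internal start, held the TCF/LEF core 180 and 120 bases before it. The Bcl11b window held the core 89 bases before the start, and the Bcl6 window 44 bases before it, with an ETS motif 88 bases before. The other windows of Tcf7 and Lef1 held none of these letters. A match describes the letters only, and binding was not measured.

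Values are in TPM, the share of all transcripts that a gene contributes, on a scale that sums to 1000000 in each library. TPM corrects for length and so allows levels of different genes to be set side by side. The lengths behind the values are not in the sources used here: in OVA/Citra replicate 1 Tcf7 had 1186 reads at 75.2 TPM, and Satb1 3574 reads at 48.1 TPM. Read counts worked back from the table came to between 14754470 and 17384330 per library. At that depth the libraries held 23 to 8945 reads for 9 of the 10 genes and 17 to 108 for Bcl6. Changes are on the log2(TPM + 1) scale with their standard error (SE), from a limma fit over the 11971 genes that averaged 1 TPM or more in some group. P-values are two-sided and adjusted by the Benjamini-Hochberg method, and an adjusted p under 0.05 made a call. Bcl6 passed the filter on low values through the OVA/Citra group alone, so its place among the genes higher there is not independent of the filter. In bulk RNA, fewer cells that express a gene and less RNA of it in each cell cannot be told apart.

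**Figure D1:**
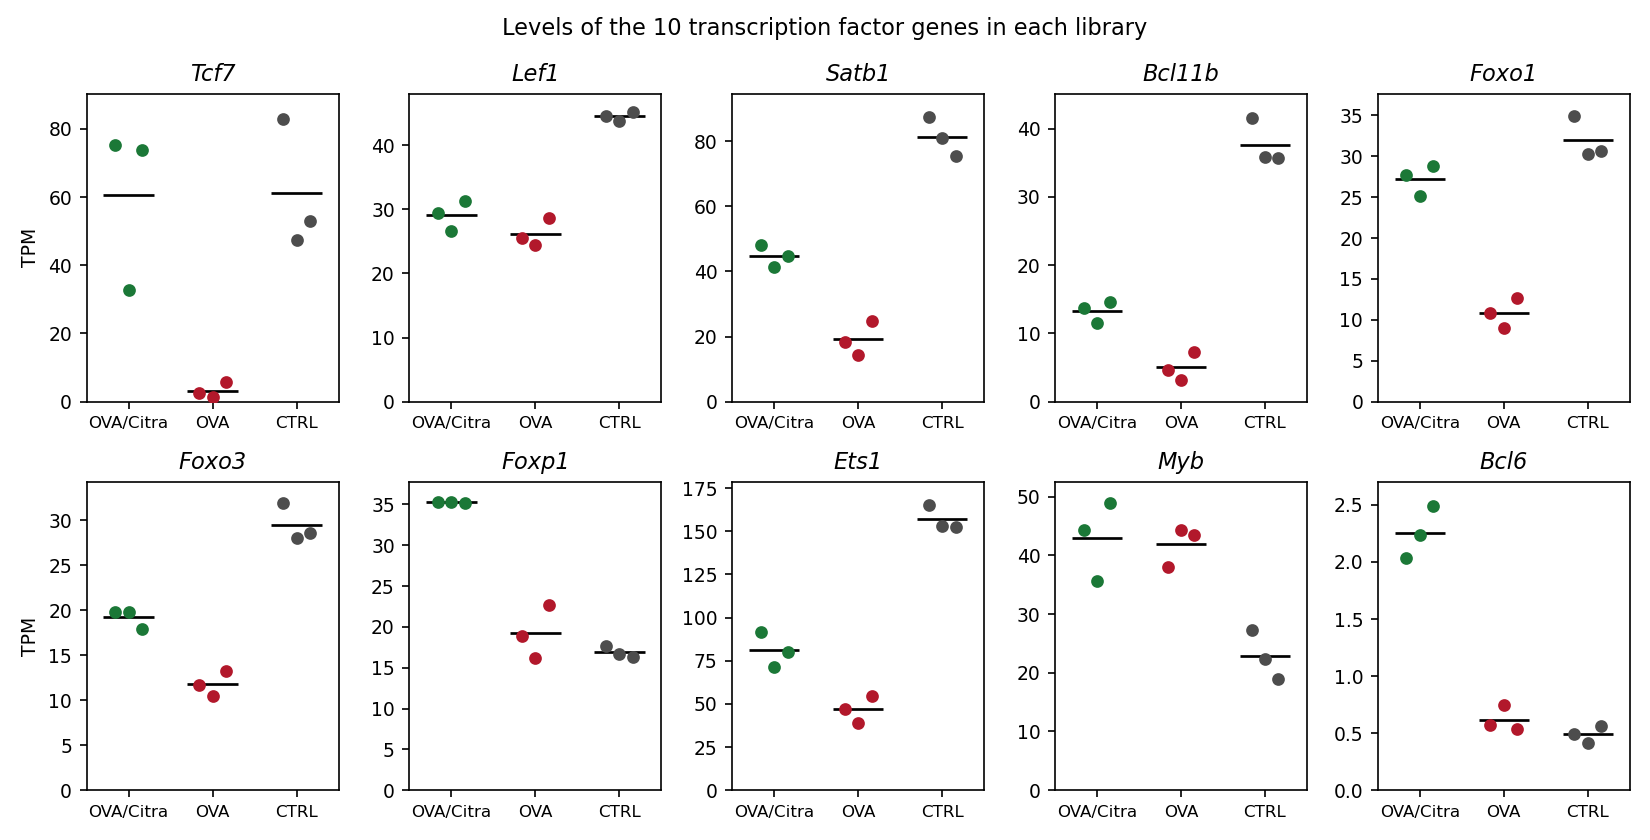
TPM of each gene (vertical axes, each from 0) in the OVA/Citra, OVA and CTRL libraries; points are libraries and bars are group means (n = 3). Tcf7 stands between 1.37 and 5.84 TPM in the OVA libraries and at 32.6 TPM or more in every other library, while Foxp1 and Bcl6 are highest in OVA/Citra and Ets1, Bcl11b and Satb1 highest in CTRL.

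With peptide alone, 7 of the 10 genes fell and 1 rose, against 71.9% of all genes called in either direction. Tcf7, Bcl11b, Satb1, Ets1, Foxo1, Foxo3 and Lef1 were lower in OVA than in CTRL, Myb was higher, and Foxp1 and Bcl6 did not pass the test. Of all genes tested, 39.8% were called lower and 32.1% higher in this comparison. The median change of the 10 genes was -1.37 on the log2 scale, and that of all genes was -0.08. When citraconate accompanied the peptide, 8 of the 10 were higher than in OVA and 0 were lower, against 37.8% of all genes called higher and 21.2% called lower (59.0% either way). Lef1 and Myb were the genes that did not pass. The median change was 0.93 for the 10 genes and 0.12 for all genes. That shift of the whole table is stated once here, and changes relative to it are given with the genes. Scaling each library by its median ratio instead removed the shift and gave 3520 genes higher and 3554 lower, against 4522 and 2543 in TPM; the same 8 of the 10 genes stayed called higher. OVA/Citra and CTRL also differed from each other. Foxp1, Bcl6 and Myb were higher in OVA/Citra, Bcl11b, Ets1, Satb1, Lef1 and Foxo3 were lower, and Tcf7 and Foxo1 did not pass the test. Of all genes, 33.1% were called higher and 26.3% lower (59.4% either way), and the median change was -0.41 for the 10 genes and 0.04 for all genes. Groups without overlap between libraries were found for 8, 8 and 9 of the 10 genes in OVA against CTRL, OVA/Citra against OVA and OVA/Citra against CTRL, and for 75.0%, 66.1% and 67.4% of all genes, so those counts alone say little about these genes. The comparisons share libraries, so they are not independent of each other. The peptide that CTRL lacks is present in both other groups.

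**Figure D2:**
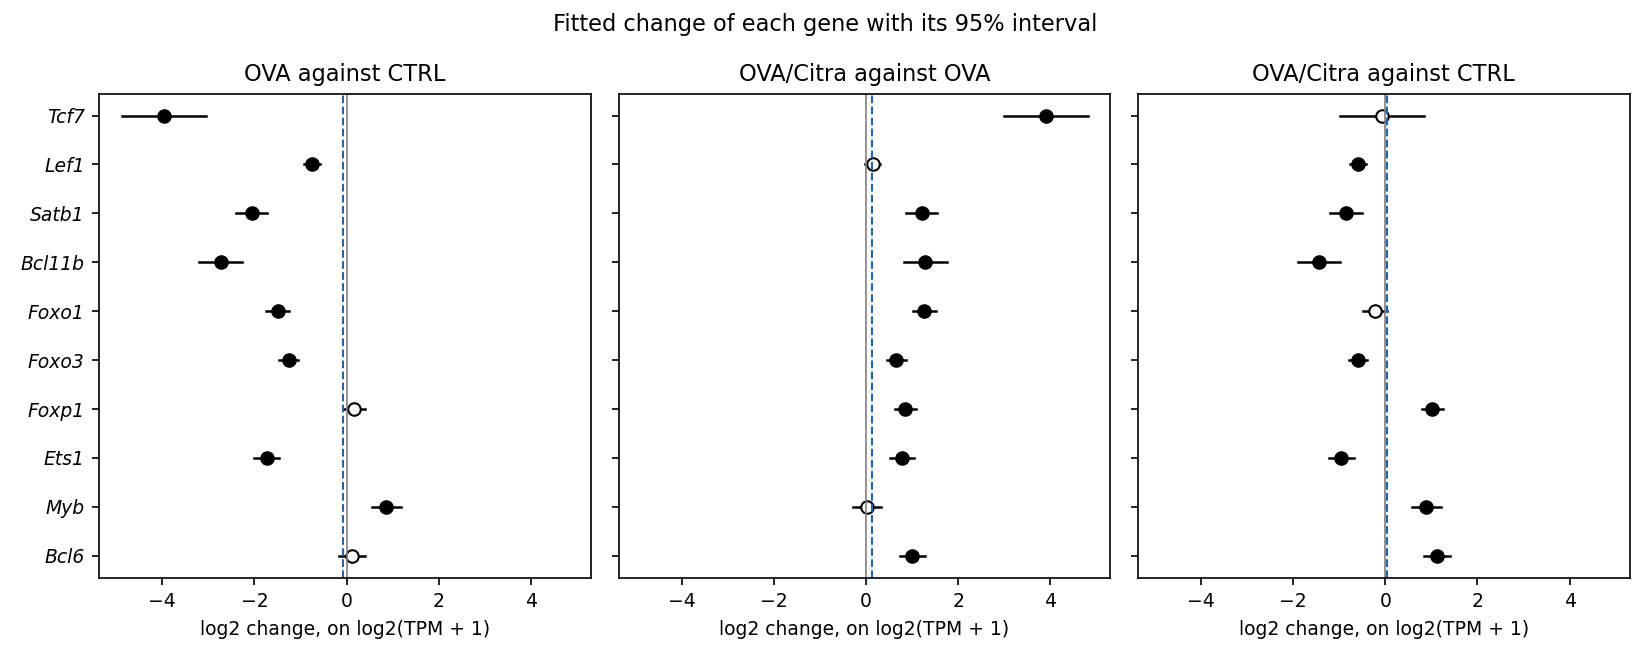
Change of each gene on log2(TPM + 1) (horizontal axis) in the 3 comparisons, with 95% intervals of the limma fit; filled points have an adjusted p under 0.05, the grey line marks 0 and the dashed line the median of all 11971 genes. The points for OVA/Citra against OVA lie at or right of 0, with Tcf7 at 3.91, and those for OVA/Citra against CTRL fall on both sides.

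Tcf7 had the largest ratio of highest to lowest level of the 10 genes. Its levels were 75.2, 32.6 and 73.9 TPM in OVA/Citra replicates 1, 2 and 3, 2.51, 1.37 and 5.84 TPM in OVA, and 82.8, 47.3 and 53.0 TPM in CTRL. All 3 OVA libraries lay below every other library, and OVA/Citra and CTRL overlapped. The mean was 60.6 ± 24.2 TPM in OVA/Citra, 3.24 ± 2.32 TPM in OVA and 61.04 ± 19.1 TPM in CTRL (SD, n = 3 each). Against CTRL, Tcf7 was 18.8-fold lower in OVA by the ratio of mean TPM, a log2 change of -3.97 (SE 0.41; limma, Benjamini-Hochberg adjusted p = 1.11e-05) that ranked 24 of 11971 from the lowest. With citraconate it was 18.7-fold higher than in OVA, a log2 change of 3.91 (SE 0.41; limma, Benjamini-Hochberg adjusted p = 4.11e-05), or 3.78 above the median of all genes. Its increase ranked 1 of 11971. OVA/Citra and CTRL differed by -0.062 (95% interval -0.97 to 0.85; limma, Benjamini-Hochberg adjusted p = 0.904), an interval that allows a change of nearly 1 log2 unit either way. The sign of that small difference turned without OVA/Citra replicate 2, to 0.33, or without CTRL replicate 1, to 0.18.

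Lef1, the other HMG-box gene, behaved differently. It stood at 29.5, 26.6 and 31.3 TPM in OVA/Citra, 25.55, 24.5 and 28.6 TPM in OVA and 44.5, 43.8 and 45.2 TPM in CTRL. Every CTRL library lay above all libraries given peptide, and OVA/Citra overlapped OVA. Lef1 was 1.70-fold lower in OVA than in CTRL (log2 change -0.74, SE 0.08; limma, Benjamini-Hochberg adjusted p = 1.08e-05) and 1.53-fold lower in OVA/Citra than in CTRL (-0.60, SE 0.08; adjusted p = 9.24e-05). Its difference between OVA/Citra and OVA was 0.15 (95% interval -0.024 to 0.32; adjusted p = 0.123), or 0.02 above the median of all genes. Leaving out OVA/Citra replicate 2 or OVA replicate 3 brought that difference to 0.21 with an adjusted p of 0.0404 each time. The ratio of Tcf7 to Lef1 in TPM summarises the contrast. It was 2.55, 1.23 and 2.36 in OVA/Citra, 0.0982, 0.0558 and 0.204 in OVA, and 1.86, 1.08 and 1.17 in CTRL. An exact two-sided permutation test of the log2 ratio gave p = 0.1 for OVA against CTRL, 0.1 for OVA/Citra against OVA and 0.2 for OVA/Citra against CTRL, where 0.1 is the smallest p that 3 against 3 libraries can give. The remaining family members, Tcf7l1 and Tcf7l2, did not pass the filter: Tcf7l1 reached at most 0.573 TPM, in CTRL, and Tcf7l2 at most 0.125 TPM, in OVA.

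Satb1, a chromatin organiser that folds T cell loci, took a middle place with citraconate. Its levels were 48.1, 41.25 and 44.7 TPM in OVA/Citra, 18.4, 14.3 and 24.7 TPM in OVA, and 87.4, 80.9 and 75.5 TPM in CTRL. The groups did not overlap. Satb1 was 4.25-fold lower in OVA than in CTRL (log2 change -2.06, SE 0.15; limma, Benjamini-Hochberg adjusted p = 1.2e-06), 2.34-fold higher in OVA/Citra than in OVA (1.21, SE 0.15, or 1.09 above the median of all genes; adjusted p = 1.15e-04) and 1.82-fold lower in OVA/Citra than in CTRL (-0.85, SE 0.15; adjusted p = 9.11e-04).

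Bcl11b, a zinc finger repressor that keeps natural killer (NK) genes off in T cells, had the same order of groups. It stood at 13.7, 11.5 and 14.6 TPM in OVA/Citra, 4.68, 3.14 and 7.31 TPM in OVA, and 41.5, 35.8 and 35.7 TPM in CTRL. All OVA libraries were below all OVA/Citra libraries, and these in turn were below all CTRL libraries. The fall with peptide alone was 7.47-fold (log2 change -2.73, SE 0.21; limma, Benjamini-Hochberg adjusted p = 1.35e-06), the widest after Tcf7. With citraconate Bcl11b was 2.63-fold higher than in OVA (1.29, SE 0.21, or 1.17 above the median; adjusted p = 4.68e-04), and 2.84-fold lower than in CTRL (-1.44, SE 0.21; adjusted p = 2.07e-04).

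Of the 3 forkhead genes, Foxo1 and Foxo3 had the same order of groups, and Foxp1 a different one. FOXO1, the AKT-controlled activator of homing and survival genes, is known to act upstream of Tcf7. Foxo1 was at 27.7, 25.1 and 28.8 TPM in OVA/Citra, 10.8, 8.95 and 12.6 TPM in OVA and 34.9, 30.3 and 30.6 TPM in CTRL. The OVA libraries were the lowest, and the highest OVA/Citra library lay just under the lowest CTRL library. Foxo1 was 2.96-fold lower in OVA than in CTRL (log2 change -1.49, SE 0.11; limma, Benjamini-Hochberg adjusted p = 1.32e-06) and 2.52-fold higher in OVA/Citra than in OVA (1.27, SE 0.11, or 1.15 above the median; adjusted p = 1.92e-05). OVA/Citra and CTRL differed by -0.22 (95% interval -0.48 to 0.029; adjusted p = 0.114). That difference passed the test under the median-of-ratios scaling (-0.27, adjusted p = 0.042), with only the 2 groups in the fit (-0.22, adjusted p = 0.0384) and without OVA replicate 2 (-0.22, adjusted p = 0.0471).

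Foxo3, its close relative, restrains the survival and expansion of T cells. Foxo3 was at 19.8, 19.8 and 17.95 TPM in OVA/Citra, 11.6, 10.5 and 13.3 TPM in OVA and 31.8, 28.0 and 28.6 TPM in CTRL. No groups overlapped, and OVA/Citra lay between the others. The log2 change was -1.25 in OVA against CTRL (SE 0.09; limma, Benjamini-Hochberg adjusted p = 1.05e-06), 0.66 in OVA/Citra against OVA (SE 0.09, or 0.54 above the median; adjusted p = 1.91e-04) and -0.59 in OVA/Citra against CTRL (SE 0.09; adjusted p = 3.25e-04). The ratio of Foxo1 to Foxo3 in TPM was 1.40, 1.27 and 1.61 in OVA/Citra, 0.927, 0.852 and 0.953 in OVA and 1.10, 1.08 and 1.07 in CTRL. OVA/Citra libraries had the highest ratios and OVA libraries the lowest, with exact two-sided permutation p = 0.1 in each comparison, again the smallest possible.

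Foxp1, which holds naive T cells quiescent and competes with FOXO1 for DNA sites, did not fall with peptide. It was at 35.3, 35.3 and 35.2 TPM in OVA/Citra, 18.9, 16.2 and 22.7 TPM in OVA, and 17.6, 16.65 and 16.3 TPM in CTRL. OVA and CTRL overlapped, and OVA/Citra lay above both. Foxp1 was 1.83-fold higher in OVA/Citra than in OVA (log2 change 0.85, SE 0.10, or 0.73 above the median; limma, Benjamini-Hochberg adjusted p = 8.17e-05) and 2.09-fold higher than in CTRL (1.02, SE 0.10; adjusted p = 1.68e-05). OVA and CTRL differed by 0.17 (95% interval -0.058 to 0.40; adjusted p = 0.158). This passed the test under the median-of-ratios scaling (0.25, adjusted p = 0.0291), with the granzyme genes left out (0.28, adjusted p = 0.0259), without OVA replicate 2 (0.28, adjusted p = 0.0132) and without both OVA replicate 2 and OVA/Citra replicate 2 (0.28, adjusted p = 0.0164). The 3 OVA/Citra values had a coefficient of variation of 0.24%, less than the 1.84% that counting error alone gives. The overlapping gene Gm20696, on the same strand, reached 0.98 TPM, at most 5.53% of Foxp1, and how shared reads were divided is not known.

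Ets1, the founding member of the ETS family and a factor for T cell survival and cytokine genes, was the most abundant of the 10 in every group. Its levels were 91.7, 71.1 and 80.0 TPM in OVA/Citra, 47.0, 38.8 and 54.8 TPM in OVA, and 165, 153 and 152 TPM in CTRL. The groups did not overlap. It was 3.35-fold lower in OVA than in CTRL (log2 change -1.73, SE 0.12; limma, Benjamini-Hochberg adjusted p = 7.58e-07), 1.73-fold higher in OVA/Citra than in OVA (0.78, SE 0.12, or 0.66 above the median; adjusted p = 3.61e-04) and 1.94-fold lower in OVA/Citra than in CTRL (-0.95, SE 0.12; adjusted p = 8.92e-05).

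Myb, a factor for self-renewal and the formation of stem-like CD8+ T cells, went the other way. It was at 44.4, 35.7 and 49.0 TPM in OVA/Citra, 38.0, 44.3 and 43.5 TPM in OVA, and 27.2, 22.3 and 18.9 TPM in CTRL. Both peptide groups lay above CTRL and overlapped each other. Myb rose 1.84-fold in OVA over CTRL (log2 change 0.86, SE 0.14; limma, Benjamini-Hochberg adjusted p = 2.8e-04) and 1.89-fold in OVA/Citra over CTRL (0.89, SE 0.14; adjusted p = 3.72e-04). Between OVA/Citra and OVA the difference was 0.026 (95% interval -0.29 to 0.34; adjusted p = 0.886), and its sign turned under both scaling alternatives (median of ratios -0.10, granzyme genes left out -0.045). The antisense gene Gm26577 reached at most 1.01% of Myb.

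Bcl6, a repressor that opposes Blimp-1 (Prdm1) in memory and follicular cells, was the lowest of the 10. It was at 2.04, 2.24 and 2.49 TPM in OVA/Citra, 0.571, 0.745 and 0.539 TPM in OVA, and 0.490, 0.414 and 0.560 TPM in CTRL, which are 82 to 108, 25 to 32 and 17 to 26 reads. OVA/Citra lay above both other groups, which overlapped. By the ratio of mean TPM, Bcl6 in OVA/Citra was 3.65-fold higher than in OVA and 4.62-fold higher than in CTRL. On the log2(TPM + 1) scale, which shrinks changes of low genes, these were 1.01 (SE 0.13, or 0.88 above the median; limma, Benjamini-Hochberg adjusted p = 1.0e-04) and 1.13 (SE 0.13; adjusted p = 3.47e-05). OVA and CTRL differed by 0.12 (95% interval -0.16 to 0.40; adjusted p = 0.403).

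**Figure D3:**
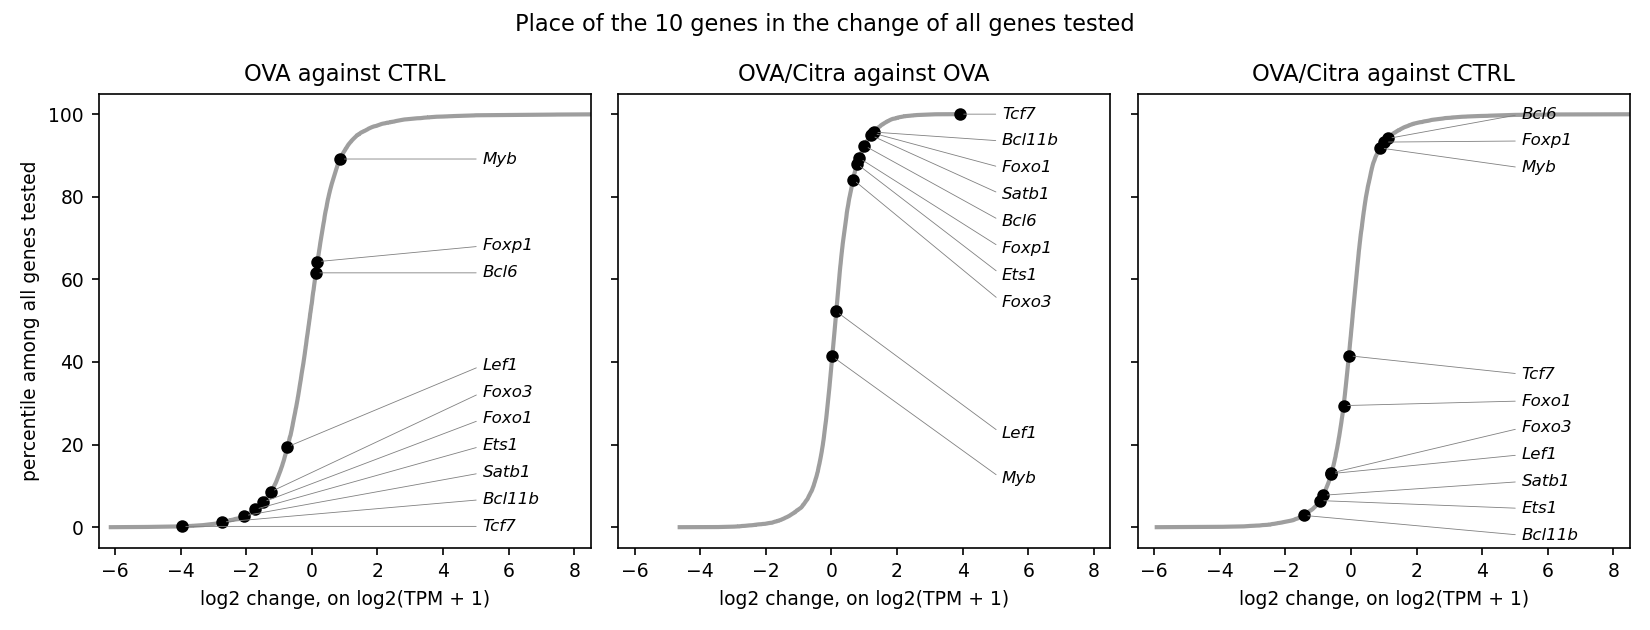
Percentile of each gene's change among all 11971 genes tested (vertical axis) against its log2 change on log2(TPM + 1) (horizontal axis); the grey curve is the distribution of all genes. Tcf7 stands at percentile 0.196 in OVA against CTRL, 100 in OVA/Citra against OVA and 41.5 in OVA/Citra against CTRL.

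Set among all genes, the fall of Tcf7 in OVA stood at percentile 0.196 of the changes, that of Bcl11b at 1.22, Satb1 at 2.76, Ets1 at 4.29, Foxo1 at 6.05, Foxo3 at 8.58 and Lef1 at 19.5. In OVA/Citra against OVA the same genes took percentiles of 100, 95.7, 94.9, 87.9, 95.4, 84.2 and 52.2. Foxp1 and Bcl6, which stood at 64.3 and 61.6 in OVA against CTRL, reached 89.3 and 92.4 in OVA/Citra against OVA.

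Summed over the 10 genes, the levels came to 356 ± 47.3 TPM in OVA/Citra, 185 ± 26.1 TPM in OVA and 483 ± 43.9 TPM in CTRL (SD, n = 3 each). Tcf7 made up 10.8% to 19.6% of this sum in OVA/Citra, 0.840% to 2.73% in OVA and 10.3% to 15.5% in CTRL. Ets1 made up 21.2% to 23.7% in OVA/Citra, 23.8% to 26.4% in OVA and 31.0% to 33.35% in CTRL. The share of Tcf7 was lowest in the 3 OVA libraries, and that of Ets1 highest in the 3 CTRL libraries.

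The replicates were not alike. OVA replicate 2 was the lowest OVA library for 8 of the 10 genes and OVA replicate 3 the highest for the same 8. Among all genes, 41.1% were lowest in OVA replicate 2 and 47.6% highest in OVA replicate 3. The share with both was not counted. OVA/Citra replicate 2 was the lowest of its group for 7 of the 10 (43.5% of all genes), and CTRL replicate 1 the highest for 8 (47.2%). The coefficient of variation of Tcf7 was 40.0% in OVA/Citra, 71.7% in OVA and 31.2% in CTRL, where counting error alone gives 3.39%, 15.3% and 3.22%. These stood at percentiles 93.7, 96.9 and 90.85 of the coefficients of all genes. The share of all transcripts that came from granzyme genes, the cytotoxic proteases of effector cells, differed in the same libraries. It was 3.22%, 4.87% and 3.31% in OVA/Citra replicates 1, 2 and 3, 8.38%, 9.54% and 7.66% in OVA, and 0.876%, 1.09% and 1.02% in CTRL. The replicate lowest in Tcf7 was the one highest in granzymes in each group, and this was replicate 2 each time. Whether same-numbered libraries share more than a number is not in the labels. Without OVA replicate 2 and OVA/Citra replicate 2 together, a choice made after seeing the data, 9, 8 and 8 of the 10 genes were called in OVA against CTRL, OVA/Citra against OVA and OVA/Citra against CTRL, and 70%, 53.4% and 58.4% of all 11964 genes then tested. With all libraries these were 8, 8 and 8 of the 10 genes, and 71.9%, 59.0% and 59.4% of all genes.

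Close relatives of the 10 genes were taken as a family comparison; means are given ± SD over the 3 libraries of a group from here on. Of 17 relatives, all in the table, 10 passed the filter: Foxo4, Foxp4, Bcl6b, Mybl1, Mybl2, Ets2, Fli1, Elf1, Elf4 and Gabpa. Tcf7l1, Tcf7l2, Foxo6, Foxp2, Foxp3 and Bcl11a were among those that did not. In OVA against CTRL 0 rose and 7 fell, where 32.1% of all genes were called higher and 39.8% lower. The median log2 change of the relatives was -0.62, against -0.08 for all genes. In OVA/Citra against OVA 6 rose and 3 fell, against 37.8% and 21.2% of all genes. Without OVA replicate 2 and OVA/Citra replicate 2 these were 4 and 2, against 34.7% and 18.7% of all genes. In OVA/Citra against CTRL 2 rose and 5 fell, against 33.1% and 26.3% of all genes. The 3 that fell with citraconate, Fli1, Elf1 and Elf4, are ETS genes, whereas Ets1 rose. Of the other tested ETS relatives, Ets2 rose and Gabpa did not pass.

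**Figure D4:**
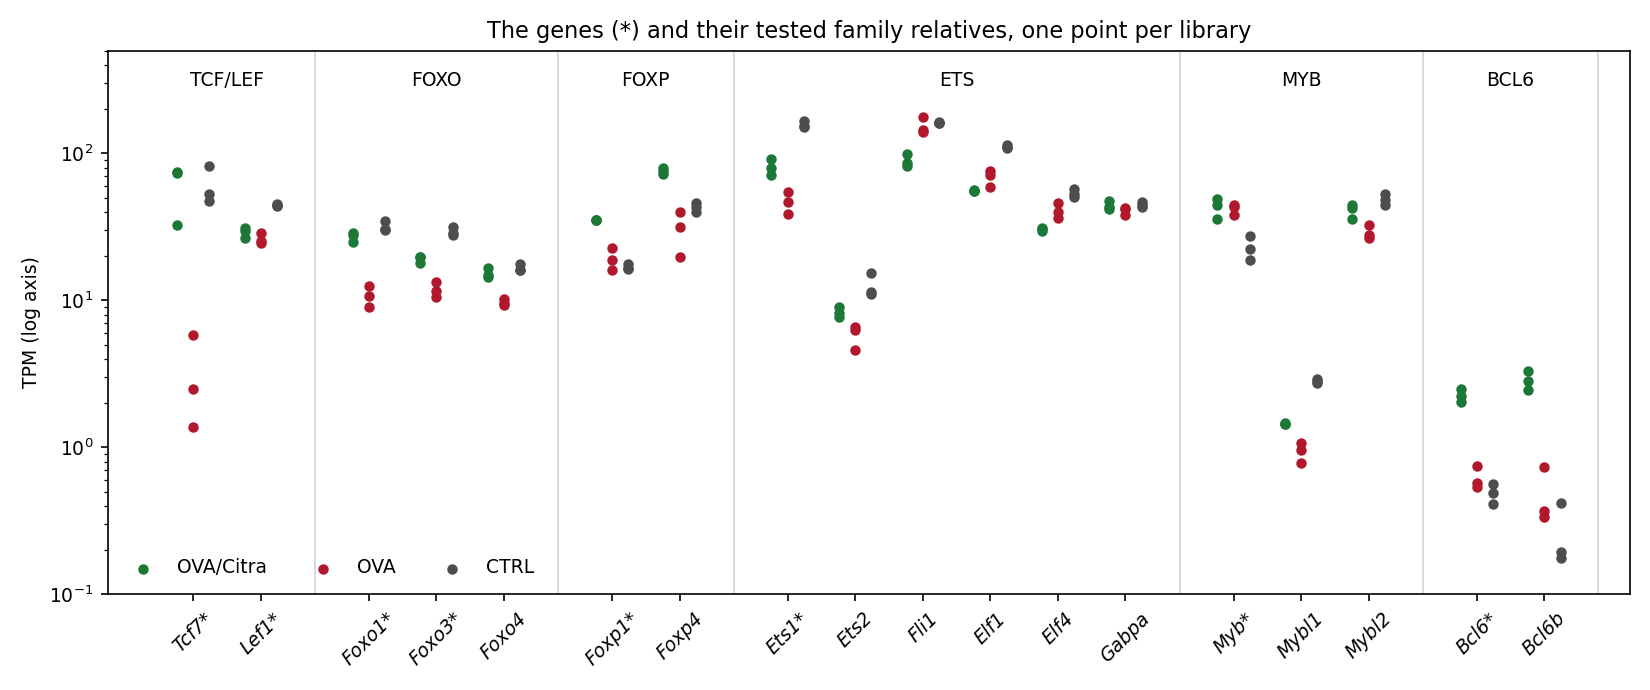
TPM (log axis) of the genes, marked *, and of their tested relatives, grouped by family, with points for single OVA/Citra, OVA and CTRL libraries. Fli1, Elf1 and Elf4 are lowest in OVA/Citra, whereas Ets1 is lowest in OVA.

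Fli1, an ETS factor that restrains effector differentiation, averaged 89.3 ± 8.25 TPM in OVA/Citra, 154 ± 19.9 TPM in OVA and 162 ± 1.84 TPM in CTRL. It fell by 0.78 on the log2 scale in OVA/Citra against OVA (limma, Benjamini-Hochberg adjusted p = 6.81e-05). Elf1 averaged 56.0 ± 0.497 TPM in OVA/Citra, 68.8 ± 8.28 TPM in OVA and 111 ± 3.29 TPM in CTRL. Elf4 averaged 30.5 ± 0.918 TPM in OVA/Citra, 40.7 ± 4.69 TPM in OVA and 53.5 ± 3.35 TPM in CTRL. Both fell in OVA/Citra against OVA (-0.28, adjusted p = 0.00995; -0.40, adjusted p = 0.00226). Elf1 did not pass without both replicates 2 of the peptide groups (-0.21, adjusted p = 0.0536). Ets2 averaged 8.35 ± 0.648 TPM in OVA/Citra, 5.8 ± 1.08 TPM in OVA and 12.7 ± 2.41 TPM in CTRL. It rose by 0.47 (adjusted p = 0.0202), a call likewise lost without those libraries (0.38, adjusted p = 0.0603). Gabpa averaged 44.2 ± 2.71 TPM in OVA/Citra, 40.9 ± 2.33 TPM in OVA and 44.9 ± 1.68 TPM in CTRL. It passed in 0 of the 3 comparisons (limma, unadjusted p 0.127, 0.0722 and 0.736 for OVA/Citra against OVA, OVA against CTRL and OVA/Citra against CTRL).

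Among the forkhead relatives, Foxp4 averaged 75.6 ± 3.62 TPM in OVA/Citra, 30.4 ± 10.3 TPM in OVA and 43.0 ± 3.19 TPM in CTRL. Like Foxp1 it was higher in OVA/Citra than in either other group (log2 change 1.34 over OVA, adjusted p = 2.57e-04, and 0.80 over CTRL, adjusted p = 0.00526; limma, Benjamini-Hochberg). Unlike the test of Foxp1, its test in OVA against CTRL gave a fall (-0.54, limma adjusted p = 0.0296), though the libraries overlapped. They ran from 19.6 to 40.1 TPM in OVA and from 39.7 to 46.1 TPM in CTRL. The fall did not pass with the granzyme genes left out (-0.43, limma adjusted p = 0.0644). Foxo4 averaged 15.3 ± 1.2 TPM in OVA/Citra, 9.73 ± 0.501 TPM in OVA and 16.6 ± 0.906 TPM in CTRL, and rose by 0.60 in OVA/Citra against OVA (adjusted p = 1.65e-04). Bcl6b, the nearest relative of Bcl6, had 2.86 ± 0.432 TPM in OVA/Citra, 0.482 ± 0.223 TPM in OVA and 0.263 ± 0.135 TPM in CTRL. It passed the filter through the OVA/Citra group alone, so its place among the relatives higher there is not independent of the filter. Mybl1 averaged 1.45 ± 0.0177 TPM in OVA/Citra, 0.938 ± 0.147 TPM in OVA and 2.83 ± 0.0959 TPM in CTRL. Mybl2 averaged 41.0 ± 4.43 TPM in OVA/Citra, 29.1 ± 3.29 TPM in OVA and 48.8 ± 4.12 TPM in CTRL. Both were lower in OVA than in CTRL (-0.99, adjusted p = 2.17e-05, and -0.73, adjusted p = 1.04e-04).

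Cofactors through which TCF-1 and LEF-1 act were counted next. For these and the lists that follow, the shares of all genes called higher and lower were 32.1% and 39.8% in OVA against CTRL, 37.8% and 21.2% in OVA/Citra against OVA, and 33.1% and 26.3% in OVA/Citra against CTRL, with median changes of -0.08, 0.12 and 0.04. The 4 genes named from each list are those with the smallest adjusted p in OVA/Citra against OVA, so their changes there were selected and do not stand for the list. Of 17 tested genes of the Wnt and TCF list, which holds beta-catenin, its destruction complex, the BCL9 and Pygopus adaptors, TLE co-repressors and HDACs, 1 rose and 10 fell in OVA against CTRL, with a median of -0.73. In OVA/Citra against OVA 12 rose and 0 fell, with a median of 0.40, and in OVA/Citra against CTRL 2 rose and 9 fell. Under the median-of-ratios scaling the 12 and 0 became 10 and 3. Tle4, a Groucho co-repressor, averaged 16.1 ± 1.33 TPM in OVA/Citra, 8.91 ± 1.16 TPM in OVA and 15.4 ± 0.689 TPM in CTRL. Bcl9l, an adaptor of beta-catenin, averaged 13.4 ± 0.453 TPM in OVA/Citra, 6.54 ± 1.15 TPM in OVA and 27.6 ± 3.17 TPM in CTRL. Axin1, a scaffold of the destruction complex, averaged 58.5 ± 3.78 TPM in OVA/Citra, 41.8 ± 2.21 TPM in OVA and 67.5 ± 1.19 TPM in CTRL. Hdac1, a histone deacetylase, averaged 179.7 ± 16.8 TPM in OVA/Citra, 119 ± 9.66 TPM in OVA and 134 ± 2.14 TPM in CTRL. Their log2 changes in OVA/Citra over OVA were 0.79, 0.94, 0.47 and 0.59 (limma, Benjamini-Hochberg adjusted p = 1.18e-04, 1.2e-04, 1.42e-04 and 1.28e-04).

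Genes that mark stem-like CD8+ T cells were in the main lower in OVA and higher with citraconate. Of 22 tested, 1 rose and 18 fell in OVA against CTRL, with a median of -1.59. In OVA/Citra against OVA 18 rose and 1 fell (median 1.27), and in OVA/Citra against CTRL 5 rose and 12 fell (median -0.85). Id3, an inhibitor of E proteins and a partner of TCF-1 in memory cells, averaged 23.2 ± 6.25 TPM in OVA/Citra, 2.16 ± 1.36 TPM in OVA and 28.6 ± 4.21 TPM in CTRL. Klf2, a quiescence and trafficking factor, averaged 70.5 ± 11.1 TPM in OVA/Citra, 19.3 ± 0.812 TPM in OVA and 143 ± 14.8 TPM in CTRL. Bcl2, the survival gene, averaged 49.5 ± 3.75 TPM in OVA/Citra, 27.5 ± 2.28 TPM in OVA and 125 ± 5.24 TPM in CTRL. Icos, a costimulatory receptor, averaged 102 ± 4.18 TPM in OVA/Citra, 53.9 ± 5.16 TPM in OVA and 113 ± 11.8 TPM in CTRL. Id3 and Icos in OVA/Citra did not differ from CTRL past the threshold (-0.32, adjusted p = 0.367, and -0.15, adjusted p = 0.169; limma, Benjamini-Hochberg), while Klf2 and Bcl2 were lower there (-1.02, adjusted p = 2.54e-05, and -1.32, adjusted p = 4.58e-07). Icos was called lower under the median-of-ratios scaling (-0.19, adjusted p = 0.048).

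Known targets of FOXO proteins, some of which are also on the stem-like list, gave 1 up and 19 down of 23 in OVA against CTRL, 20 up and 1 down in OVA/Citra against OVA, and 7 up and 11 down in OVA/Citra against CTRL. Under the median-of-ratios scaling the 20 and 1 became 19 and 3. The medians were -1.02, 1.09 and -0.17. Some stood above CTRL with citraconate. Bcl2l11, which encodes the death protein BIM, averaged 41.9 ± 4.47 TPM in OVA/Citra, 6.54 ± 1.23 TPM in OVA and 6.73 ± 0.603 TPM in CTRL, so in OVA/Citra it was 6.41-fold higher than in OVA and 6.23-fold higher than in CTRL (limma, Benjamini-Hochberg adjusted p = 2.99e-06 and 2.57e-07). Irs2, an insulin receptor substrate, averaged 31.1 ± 5.57 TPM in OVA/Citra, 4.84 ± 1.59 TPM in OVA and 12.4 ± 0.267 TPM in CTRL. Btg2, an antiproliferative gene, averaged 68.6 ± 10.1 TPM in OVA/Citra, 16.5 ± 1.94 TPM in OVA and 37.3 ± 3.04 TPM in CTRL. In OVA/Citra both lay above CTRL as well (log2 changes 1.24, adjusted p = 2.26e-04, and 0.85, adjusted p = 1.5e-04).

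Factors of effector or exhausted fates moved in both directions. Of 18 tested, 10 rose and 5 fell in OVA against CTRL, 8 rose and 4 fell in OVA/Citra against OVA, and 10 rose and 2 fell in OVA/Citra against CTRL. Tox, the factor of exhausted and precursor-exhausted cells, averaged 10.4 ± 2.11 TPM in OVA/Citra, 0.98 ± 0.722 TPM in OVA and 1.26 ± 0.559 TPM in CTRL. It was 10.6-fold higher in OVA/Citra than in OVA (log2 change 2.57; limma, Benjamini-Hochberg adjusted p = 4.18e-05). Bhlhe40, a factor for cytokine output and mitochondrial fitness, averaged 974 ± 27.2 TPM in OVA/Citra, 582 ± 31.0 TPM in OVA and 531 ± 10.4 TPM in CTRL. Ikzf2, an Ikaros relative, averaged 8.42 ± 1.28 TPM in OVA/Citra, 1.43 ± 0.259 TPM in OVA and 5.29 ± 0.664 TPM in CTRL. Maf, a factor of cytokine control, averaged 5.63 ± 1.32 TPM in OVA/Citra, 1.68 ± 0.125 TPM in OVA and 8.66 ± 1.25 TPM in CTRL. Bhlhe40, Ikzf2 and Maf were higher in OVA/Citra than in OVA by 0.74, 1.95 and 1.29 on the log2 scale (adjusted p = 6.09e-06, 7.17e-06 and 6.73e-05; limma, Benjamini-Hochberg).

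NK genes, which Bcl11b is known to hold back, were mostly higher in the groups where Bcl11b was lower. Whether these changes are linked was not tested. Of 15 tested, 11 rose and 1 fell in OVA against CTRL, with a median log2 change of 3.04. In OVA/Citra against OVA 4 rose and 9 fell (median -0.91), and in OVA/Citra against CTRL 13 rose and 1 fell (median 1.76). Tyrobp, a signalling adaptor of NK receptors, averaged 129.5 ± 44.1 TPM in OVA/Citra, 789 ± 179 TPM in OVA and 0.864 ± 0.19 TPM in CTRL. Fcer1g, another adaptor, averaged 134 ± 62.2 TPM in OVA/Citra, 933 ± 247 TPM in OVA and 2.97 ± 0.396 TPM in CTRL. Ncr1, the receptor NKp46, averaged 4.07 ± 0.834 TPM in OVA/Citra and 26.3 ± 4.19 TPM in OVA, and was listed at 0 in all CTRL libraries. Klre1, a lectin-like NK receptor, averaged 20.6 ± 0.387 TPM in OVA/Citra, 39.8 ± 2.4 TPM in OVA and 3.62 ± 0.49 TPM in CTRL. In OVA/Citra against OVA these 4 had log2 changes of -2.62, -2.85, -2.43 and -0.91 (limma, Benjamini-Hochberg adjusted p = 1.31e-05, 2.51e-05, 5.32e-06 and 2.79e-05).

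Partners and targets of BCL6 showed no common direction: 6 rose and 7 fell of 15 in OVA against CTRL, 8 rose and 4 fell in OVA/Citra against OVA, and 8 rose and 6 fell in OVA/Citra against CTRL. Myc, a gene for a growth-promoting transcription factor that BCL6 can repress, averaged 548 ± 12.2 TPM in OVA/Citra, 152 ± 29.8 TPM in OVA and 652 ± 6.45 TPM in CTRL. The co-repressor gene Hdac7 averaged 246 ± 19.8 TPM in OVA/Citra, 97.6 ± 25.5 TPM in OVA and 323 ± 18.8 TPM in CTRL. Hdac5, of the same class, averaged 19.3 ± 3.71 TPM in OVA/Citra, 5.51 ± 1.82 TPM in OVA and 31.6 ± 0.887 TPM in CTRL. Cdkn1b, a cell cycle inhibitor, averaged 21.7 ± 3.75 TPM in OVA/Citra, 9.54 ± 1.73 TPM in OVA and 35.3 ± 1.09 TPM in CTRL. Their log2 changes in OVA/Citra over OVA were 1.86, 1.36, 1.66 and 1.11 (limma, Benjamini-Hochberg adjusted p = 5.32e-06, 5.94e-05, 6.81e-05 and 1.06e-04).

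**Figure D5:**
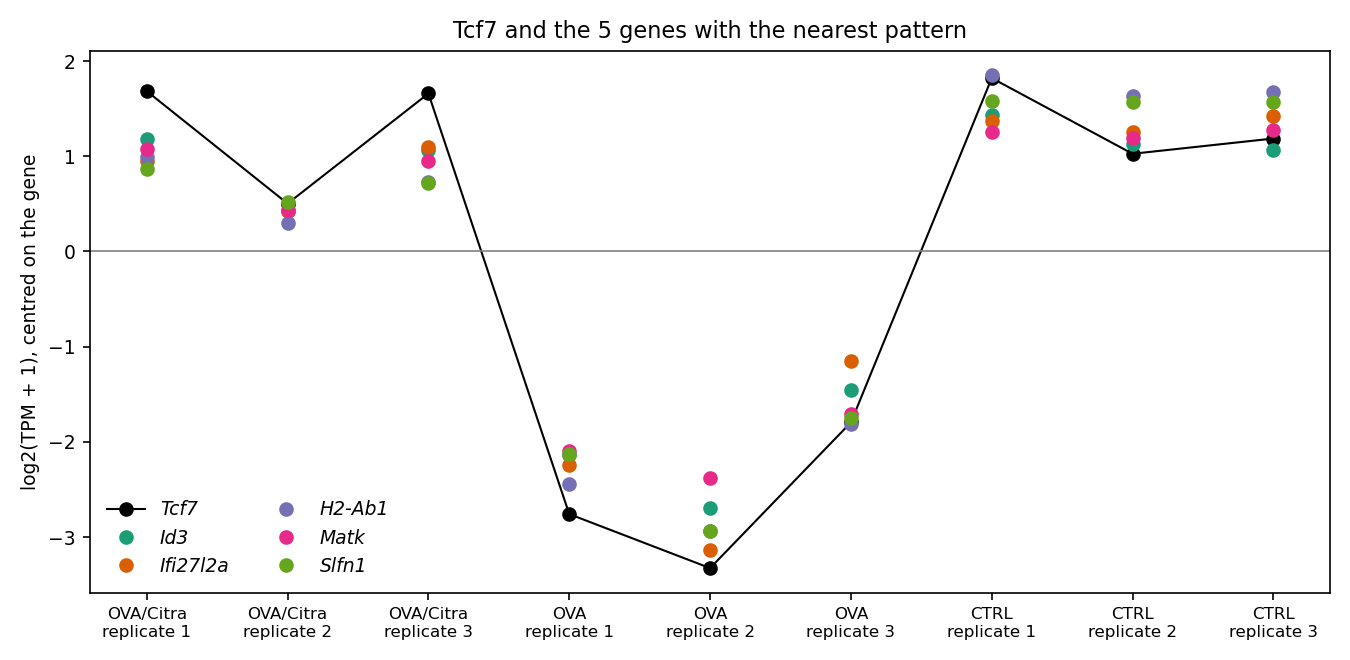
log2(TPM + 1) of Tcf7 (black line) and of the 5 genes with the nearest pattern, each centred on its own mean, in the 9 libraries (horizontal axis). Id3, Ifi27l2a, H2-Ab1, Matk and Slfn1 share the low OVA libraries, with OVA replicate 2 lowest for each gene, and the dip of Tcf7 in OVA/Citra replicate 2.

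The genes whose pattern over the 9 libraries was most like that of Tcf7 were named by the root mean square difference of log2(TPM + 1) centred on each gene, among genes that averaged 5 TPM or more in some group. Predicted or clone-named genes (such as Gm or Rik names), pseudogenes, T cell receptor segments and immunoglobulin genes were passed over. The nearest were Id3 (0.43), the interferon-induced gene Ifi27l2a (0.46), the MHC class II gene H2-Ab1 (0.50), the kinase gene Matk (0.53) and Slfn1 (0.54), a gene of quiescent T cells. Ifi27l2a averaged 191 ± 44.3 TPM in OVA/Citra, 26.5 ± 18.4 TPM in OVA and 269.9 ± 15.9 TPM in CTRL. H2-Ab1 averaged 72.0 ± 17.1 TPM in OVA/Citra, 7.997 ± 3.54 TPM in OVA and 147 ± 11.8 TPM in CTRL. The nearest of the other 9 circuit genes was Bcl11b at 1.11, followed by Satb1 at 1.19, and Myb was the farthest at 2.14. For Myb the nearest genes were Fam188a, Gnptab, Fbxw11, Rpusd3 and Dalrd3, at 0.14 to 0.15. The smaller distances for Myb go with its smaller range.

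Markers of T cells and of other cells differed between the groups together with these results, and their part in the results was not tested. The 10 T cell markers summed to 7569 to 7943 TPM in OVA/Citra, 4228 to 5373 TPM in OVA and 8519 to 8955 TPM in CTRL, with Thy1 between 2460 and 2879 TPM in every library. Cd3e, a subunit of the T cell receptor complex, was at 1187 to 1351 TPM in OVA/Citra, 374 to 645 TPM in OVA and 1383 to 1429 TPM in CTRL. The 7 NK markers, 3 of which are also named above (Ncr1, Tyrobp and Fcer1g), summed to 289 to 518 TPM in OVA/Citra, 1564 to 2519 TPM in OVA and 7.19 to 10.01 TPM in CTRL. The 7 B cell markers summed to 54.4 to 87.6 TPM in OVA/Citra, 24.9 to 31.7 TPM in OVA and 213 to 245 TPM in CTRL, most of it Ighm. Cd79b was at 9.78 to 13.8 TPM in CTRL, and reached at most 0.982 TPM in OVA and 0.353 TPM in OVA/Citra. The 6 markers of CD4 and regulatory T cells, led by the activation gene Il2ra, summed to 551 to 745 TPM in OVA/Citra, 664 to 821 TPM in OVA and 331 to 419 TPM in CTRL. The 9 myeloid and dendritic markers in the table stayed at or under 29.3 TPM, with S100a8 at 0, and the 7 erythroid and platelet markers at or under 13.1 TPM, with Hbb-bs and Ppbp among those at 0. The 6 stromal and epithelial markers, led by Pecam1, summed to 64.5 to 84.3 TPM in OVA/Citra, 264 to 387 TPM in OVA and 41.5 to 44.4 TPM in CTRL, with Krt8 at 0.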

How the data were processed

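The authors deposited 1 table of normalized values with genes named by symbol. Its name says FPKM, but since all 9 columns add up to 1000000 the deposited values were treated as TPM, for which the planned test was kept. The build GRCm39, Salmon and Trim Galore 0.5.0 are named per the submitters' processing notes. The reads worked back below came out whole, and whether Salmon gave the deposited values is not known. Reads were worked back from the table: of 16734 genes detected in 2 libraries or more, 16734 came out whole (within 0.0001 reads or 3e-08 of the count), and the same steps returned 98.6% of 2910 genes of a simulated table. They served for depth and for an alternative with voom weights; no count test was run. Intervals from them would cover counting error only.

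The scale was log2(TPM + 1), genes averaging 1 TPM or more in a group were kept, and all libraries were fitted with limma 3.58.1 (lmFit, eBayes with trend) in R 4.3.3, with Benjamini-Hochberg adjustment over all kept genes of a comparison. The fit was tested on simulated data. The genes, their lists and the rule for naming others were chosen with earlier results of these data known. From each list the 4 genes with the smallest adjusted p in OVA/Citra against OVA are named, from marker lists the 2 of highest mean and those at 0, and the relatives; some genes under this rule are not reported here. Tle5, Rflnb and Cd244a were found under the older symbols Aes, Fam101b and Cd244; the myeloid marker Itgam was not found. Replicates differed by more than sampling noise (chi-square per gene 3.74 to 23.9). Overlapping genes were looked up in GENCODE M21, which is of an older build, so only RefSeq promoter coordinates are given. The 19 alternatives covered the pseudocount (0.1), the filter (none, or 5 TPM), scaling (median of ratios, granzyme genes left out), the fit, the replicate block and libraries left out.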

Additional observations from a re-analysis of the deposited data

How the results depend on the processing

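Of 567 values of the 10 genes under the 19 alternatives, 550 kept their direction and their side of the threshold, 0 lost a call, 9 gained one and 8 changed sign; the cause was not tested. The gains, in Foxp1, Lef1 and Foxo1, stand in the text above. All changes of sign were in differences that did not pass the test. In several settings the log2 change could not move, so neither could its sign. These changed only the filter, the trend, the replicate block or the groups in the fit, or left out a library outside the comparison. Myb in OVA/Citra against OVA (0.026) became -0.10 with the median of ratios and -0.045 with the granzyme genes left out. It ranged from -0.072 to 0.15 as each library was left out. Without OVA replicate 2 and OVA/Citra replicate 2 together it was 0.19. Tcf7 in OVA/Citra against CTRL (-0.062) ranged from -0.26 to 0.33 as each library was left out, and was 0.33 without OVA replicate 2 and OVA/Citra replicate 2 together, an omission chosen after seeing the data. The called changes of Tcf7 ranged from -4.39 to -3.62 (OVA against CTRL) and from 3.56 to 4.32 (OVA/Citra against OVA) over all alternatives. The counts called in either direction, of the 10 genes and of all genes, stayed within 1.5 times the values above in every alternative; the count of the 10 called higher in OVA against CTRL went to 2, against 1, where Foxp1 passed. Bcl6 could not be fitted with the 5 TPM filter, and its changes in OVA/Citra were 1.72 over OVA and 2.01 over CTRL with the pseudocount 0.1, and 1.84 and 2.21 with voom weights on the recovered reads. The replicate block called 8, 8 and 8 of the 10 genes and 8578, 7004 and 7128 of all genes in OVA against CTRL, OVA/Citra against OVA and OVA/Citra against CTRL. The labels do not say whether same-numbered libraries share more than a number. The correlation of their deviations ran from -0.012 to 0.304. It was 0.048, 0.304 and 0.143 for replicates 1, 2 and 3 of OVA/Citra and OVA. What such libraries may share was not tested. Depth limits Tcf7 in OVA (23 to 106 reads) and Bcl6 (17 to 108 reads).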
